A study of Mus musculus with 6 samples.

Results

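The 34 genes described here encode the membrane proteins, enzymes and regulators of mature, myelin-forming oligodendrocytes. They were taken by gene symbol from the 54429 genes counted in bulk RNA sequencing of prefrontal cortex (PFC) from 6 mice, and all 34 had enough counts to be among the 20409 genes tested. The mice were 6 months old and formed 3 groups of 2: WT mice of the C57BL/6 x C3H background given vehicle, PS19(P301S) mice given vehicle (Tau), and PS19(P301S) mice given UNC0642, an inhibitor of the histone methyltransferases EHMT1 and EHMT2 (UNC0642-treated Tau). PS19 mice carry a human tau transgene with the P301S mutation, expressed from the mouse prion promoter. The RNA came from lysates of whole tissue, so fewer cells of a type and less RNA per cell cannot be told apart.

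Oligodendrocytes wrap axons of the central nervous system in myelin, a stack of compacted membrane rich in cholesterol and galactolipids. Myelin basic protein (Mbp) holds the cytoplasmic faces of the stack together, Mag, on the innermost wrap, touches the axon, and Mog lies on the outer surface. Myrf is the transcription factor that oligodendrocytes need to switch on and keep on many of these genes, together with Sox10. PFC is mainly grey matter, where myelinated fibres run up from the white matter beneath it.

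The libraries held 17005664 to 28972176 counts. Prnp, the gene whose promoter drives the transgene, had a level of 1652 CPM (counts scaled to library size with the trimmed mean of M-values) in the library labelled WT replicate 1, of 873 CPM in WT replicate 2, and of 1470 to 1694 CPM in the 4 libraries from PS19 mice. The library labelled WT replicate 1 was therefore at the level of the PS19 libraries, and results are given with and without it. Xist and Ddx3y divided the libraries as well: WT replicate 2 and both Tau libraries had 4104 to 8107 Xist counts and at most 18 Ddx3y counts, whereas the library labelled WT replicate 1 and both UNC0642 libraries had at most 5 Xist counts and 1705 to 2411 Ddx3y counts. Between UNC0642-treated and untreated Tau, treatment and this split cannot be told apart. Each group held 2 libraries. The p-values weigh a group difference against a spread estimated from these few mice over all groups, and partly shared among genes.

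Promoters were matched for 26 of the 34 genes in RefSeq (GRCm38.p6), as 36 windows of the 250 bases before a transcript start. CTGGNAC, the core of the sequence bound by Myrf, was searched on both strands and was present in 12 of the 36 windows, against 16.1% of all 32851 promoters. Of the 12, 2 are overlapping windows of Mag that hold the same 2 sites. The 12 windows belonged to 10 of the 26 genes, against 17.9% of all genes with a promoter. AACAAT, a Sox factor motif that does not overlap CTGGNAC, was present in 5 of the 36 windows against 9.42% of all promoters. The windows of 4 genes whose values are given further on are shown, 2 with the Myrf motif, 1 with the Sox motif and 1 with neither, and capitals mark the motif letters on either strand. They lie at chr7:30914923-30915172 (Mag, minus strand), chr17:37023399-37023648 (Mog, minus strand), chr4:155785875-155786124 (Tmem88b, minus strand) and chr3:31149670-31149919 (Cldn11, plus strand), and each is written 5′ to 3′ along its gene.
Mag: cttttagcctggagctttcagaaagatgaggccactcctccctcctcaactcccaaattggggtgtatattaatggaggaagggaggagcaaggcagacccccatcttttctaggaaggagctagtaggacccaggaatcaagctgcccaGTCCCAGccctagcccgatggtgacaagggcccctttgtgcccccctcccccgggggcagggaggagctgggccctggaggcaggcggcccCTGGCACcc
Mog: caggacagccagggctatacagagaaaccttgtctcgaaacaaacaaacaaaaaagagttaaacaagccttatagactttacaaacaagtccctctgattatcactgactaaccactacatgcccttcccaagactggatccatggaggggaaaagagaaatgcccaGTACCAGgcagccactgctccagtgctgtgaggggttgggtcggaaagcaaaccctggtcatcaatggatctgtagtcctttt
Tmem88b: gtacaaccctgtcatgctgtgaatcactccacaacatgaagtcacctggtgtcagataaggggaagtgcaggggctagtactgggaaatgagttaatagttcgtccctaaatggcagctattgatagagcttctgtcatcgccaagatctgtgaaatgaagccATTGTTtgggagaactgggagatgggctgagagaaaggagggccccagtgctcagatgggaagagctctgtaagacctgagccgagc
Cldn11: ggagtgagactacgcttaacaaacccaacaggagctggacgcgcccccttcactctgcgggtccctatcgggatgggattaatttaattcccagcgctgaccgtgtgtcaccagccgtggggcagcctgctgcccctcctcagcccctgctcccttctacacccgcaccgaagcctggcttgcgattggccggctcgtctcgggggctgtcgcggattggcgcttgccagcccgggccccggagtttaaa

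Across the 6 libraries the genes moved as a block, and the largest step was between the 2 mice of the Tau group rather than between groups. Tau replicate 2 was the highest of the 6 libraries for 32 of the 34 genes, the exceptions being Gsn and Nfasc. WT replicate 2 was the lowest for 25. Tau replicate 2 and the library labelled WT replicate 1 were the top 2 libraries for 29 genes, an order seen in 7.38% of all genes tested. Summed over the 34 genes, the level was 3385 CPM in the library labelled WT replicate 1 and 2060 CPM in WT replicate 2, 2608 and 5883 CPM in Tau replicates 1 and 2, and 2644 and 2717 CPM in UNC0642 replicates 1 and 2. Tau replicate 1 and both UNC0642 libraries therefore fell between the WT libraries. This held gene by gene: Tau replicate 1 lay between the WT libraries for 28 genes, and both UNC0642 libraries did so for 26.

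**Figure D1:**
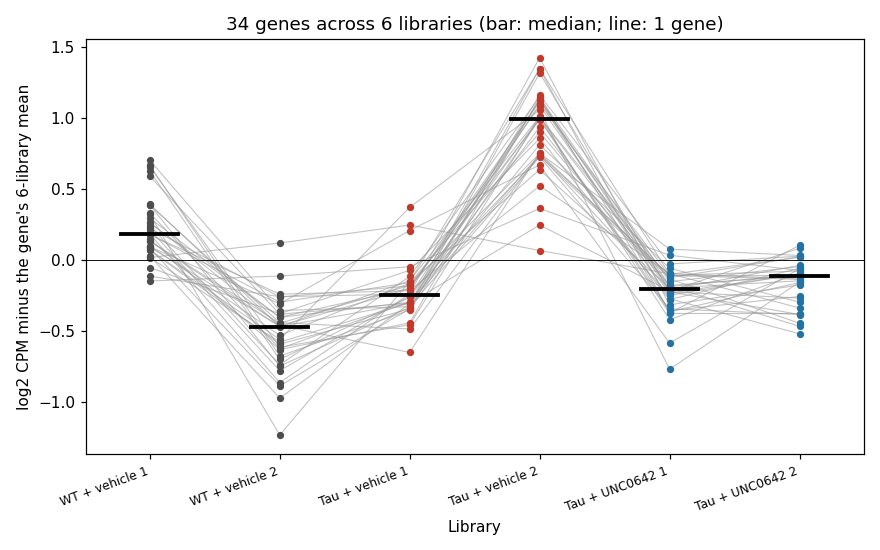
Each point is 1 of the 34 genes in 1 library, as log2 CPM minus the mean of that gene over the 6 libraries (vertical axis, log2 units); grey lines join the same gene across libraries (horizontal axis) and black bars are medians. Tau + vehicle replicate 2 has a median of 0.99 and WT + vehicle replicate 2 of -0.47, while the Tau + UNC0642 libraries sit at -0.21 and -0.11.

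Measured on the log2 CPM scale, replicate 2 minus replicate 1 had a median over the 34 genes of 1.23 in Tau, with 33 genes higher in replicate 2 and 24 differing by more than 1. In WT the median was -0.71, with 32 genes lower in replicate 2. In UNC0642-treated Tau it was 0.06, with 21 genes higher. The median absolute difference over all genes tested was 0.19, 0.19 and 0.16 in Tau, WT and UNC0642-treated Tau, and the median absolute difference of the 34 genes in UNC0642-treated Tau was 0.14. The spread of these genes thus exceeded that of the typical gene in the Tau and WT groups but not in the UNC0642 group. The 2 Tau mice differed by more than the Tau versus WT group difference for 32 of 34 genes, against 51.5% of all genes tested, and the WT libraries did so for 21. Of the variance of the 34 genes, 30.2% lay between group means. For a single gene the median share was 28.9%, against 49.1% over all genes tested.

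The levels spanned a wide range, with the compact myelin proteins Mbp and Mobp at the top. In CPM per kilobase of exon, which allows levels of different genes to be compared, the mean over 6 libraries was 119 for Mbp, 64.9 for Mobp, 58.0 for Car2 and 47.0 for Enpp2, and it reached down to 1.23 for Myrf and 0.383 for Klk6, the only gene with fewer than 10 counts in any library.

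**Figure D2:**
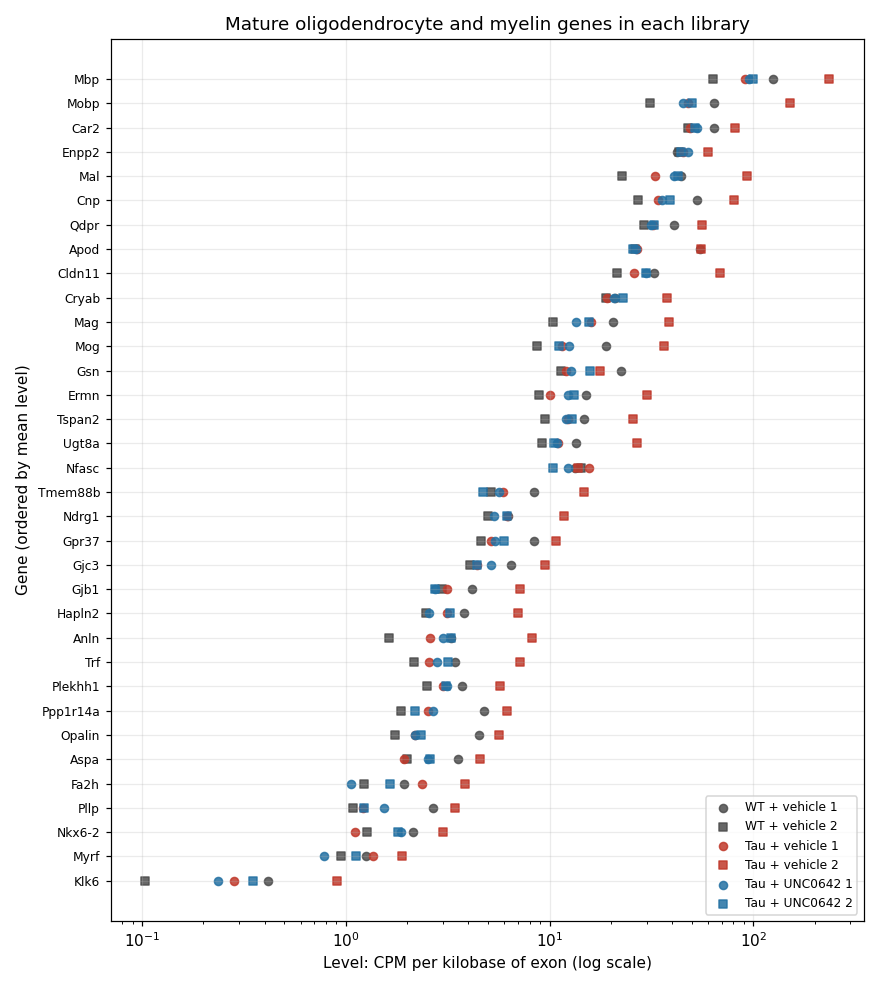
Level of each of the 34 genes in each library, in CPM per kilobase of exon (horizontal axis, log scale), with genes ordered by mean level (vertical axis); colour gives the group, circles are replicate 1 and squares replicate 2. Mbp spans 63.1 to 236, with Tau + vehicle replicate 2 at the right-hand end for 32 genes.

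Among the membrane proteins of myelin, Mbp measured 1065 and 535 CPM in WT, 770 and 2001 CPM in Tau, and 811 and 850 CPM in UNC0642-treated Tau (replicates 1 and 2 in each case, as in all that follows). The group means were 800 ± 375 CPM (SD, n = 2) in WT and 830 ± 27.3 CPM (SD, n = 2) with UNC0642, and the WT values enclosed both UNC0642 values and Tau replicate 1. Mobp, which also occupies compact myelin, had the widest gap between the Tau mice of any of the 34 genes on the log2 scale: it was at 439 and 212 CPM in WT, 328 and 1038 CPM in Tau, and 310 and 342 CPM with UNC0642. Tau replicate 2 was 3.17-fold above Tau replicate 1. Mal, a lipid raft protein involved in sorting to the myelin membrane, was also highest in Tau replicate 2 and lowest in WT replicate 2, with 123 and 62.9 CPM in WT, 91.7 and 260 CPM in Tau and 114 and 118 CPM with UNC0642. Cldn11, the claudin of the tight junctions between myelin wraps, was at 60.6 and 40.1 CPM, 48.6 and 128 CPM, and 55.4 and 55.5 CPM. Only Tau replicate 2 stood clear of the other 5 libraries for each of these 4 genes. The tetraspanin Tspan2 and the membrane proteins Tmem88b, Opalin and Pllp also had Tau replicate 2 highest, between 2.09-fold and 2.82-fold above replicate 1. For Opalin and Pllp the library labelled WT replicate 1 was high as well, at 13.2 and 5.60 CPM. Tau replicate 2 was at 16.6 and 7.16 CPM for these 2 genes. Tmem88b was the member of this group in which both UNC0642 libraries (19.5 and 16.5 CPM) were below both Tau libraries (20.6 and 51.4 CPM).

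Of the genes for surface and axon contact, Mag measured 83.7 and 42.4 CPM in WT, 65.2 and 157 CPM in Tau and 54.9 and 63.3 CPM with UNC0642. Mog was at 32.4 and 14.7 CPM in WT, 19.7 and 61.9 CPM in Tau and 21.2 and 19.0 CPM with UNC0642. For Mag the UNC0642 libraries lay just below Tau replicate 1, and for Mog Tau replicate 1 lay between them. Hapln2, a link protein of the matrix around the node of Ranvier, ranged from 5.90 CPM in WT replicate 2 to 16.6 CPM in Tau replicate 2. Nfasc stood apart. It encodes neurofascin, made both by oligodendrocytes at the paranode and by neurons at the node and axon initial segment, and it measured 189 and 203 CPM in WT, 221 and 195 CPM in Tau and 174 and 147 CPM with UNC0642. Here Tau replicate 2 was lower than Tau replicate 1, and both UNC0642 libraries were below the other 4.

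Of the enzymes, Cnp, which hydrolyses 2′,3′-cyclic nucleotides and helps keep cytoplasmic channels in myelin open, measured 192 and 99.1 CPM in WT, 125 and 293 CPM in Tau and 130 and 143 CPM with UNC0642. Ugt8a, which makes galactosylceramide, was at 61.2 and 41.6 CPM in WT, 49.9 and 122 CPM in Tau and 49.1 and 47.7 CPM with UNC0642. Both had Tau replicate 1 within the WT range. Fa2h, which hydroxylates the fatty acids of myelin galactolipids, did not: it measured 5.80 and 3.71 CPM in WT, 7.15 and 11.6 CPM in Tau, and 3.20 and 4.94 CPM with UNC0642. Both Tau libraries were above all 4 others. Enpp2 (autotaxin, a secreted enzyme that forms lysophosphatidic acid) was among the steadiest, at 243 and 249 CPM in WT, 261 and 346 CPM in Tau and 276 and 256 CPM with UNC0642, and its Tau libraries were also both above WT. Aspa, which breaks down N-acetylaspartate, Car2, a carbonic anhydrase, Qdpr, a pterin reductase, and the serine protease Klk6 had Tau replicate 2 highest, from 1.67-fold to 3.20-fold above replicate 1.

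The connexin genes Gjb1 and Gjc3, whose proteins form gap junctions of oligodendrocytes, and the receptor gene Gpr37 had Tau replicate 2 between 2.07-fold and 2.27-fold above replicate 1. Gjb1 measured 7.14 and 5.08 CPM in WT, 5.36 and 12.2 CPM in Tau and 4.68 and 4.68 CPM with UNC0642, so that both UNC0642 libraries were below all others. The regulator Myrf resembled Fa2h, with 10.8 and 8.12 CPM in WT, 11.7 and 16.1 CPM in Tau and 6.69 and 9.66 CPM with UNC0642. Its Tau libraries were both above WT and above UNC0642. The other regulator, the homeobox gene Nkx6-2, did not separate the groups, at 4.06 and 2.42 CPM, 2.11 and 5.73 CPM, and 3.55 and 3.44 CPM.

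Among genes of the cytoskeleton and of signalling, Anln, whose protein helps assemble septin filaments in myelin, measured 29.8 and 14.8 CPM in WT, 23.6 and 74.5 CPM in Tau and 27.2 and 29.6 CPM with UNC0642. Ndrg1, mutated in a demyelinating neuropathy of peripheral nerve, was at 41.1 and 32.8 CPM, 40.6 and 77.3 CPM, and 35.2 and 41.0 CPM. In both, Tau replicate 1 was below or level with the library labelled WT replicate 1. Ermn, which encodes an actin-binding protein of myelin, was at 110 CPM in Tau replicate 2 and 36.6 CPM in replicate 1, and Plekhh1 and Ppp1r14a were 1.91-fold and 2.44-fold higher there. Gsn, which encodes the actin-severing protein gelsolin, was highest in the library labelled WT replicate 1, with 70.6 and 36.0 CPM in WT, 38.0 and 55.7 CPM in Tau and 40.3 and 49.7 CPM with UNC0642. Apod, a lipid carrier that fibroblasts also express, was equally high in 1 library of each untreated group: 141 and 67.8 CPM in WT, 69.0 and 143 CPM in Tau, and 68.3 and 66.5 CPM with UNC0642. The iron carrier Trf and the small heat shock protein Cryab had Tau replicate 2 2.80-fold and 1.96-fold above replicate 1.

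Between Tau and WT, the question was whether tau pathology was accompanied by a different level of these transcripts. The median log2 fold change of the 34 genes was 0.53, while that over all genes tested was near 0, and 33 of 34 were above 0. At the study's threshold, an unadjusted p under 0.05 with a fold change of at least 1.2, 11 of the 34 genes were called higher in Tau and 0 lower, where 3.72% of all genes tested were called higher. The 11 were Mobp, Mag, Cldn11, Ugt8a, Mal, Enpp2, Fa2h, Tspan2, Anln, Myrf and Ndrg1. Anln had the largest called difference, 1.12 ± 0.43 (log2 fold change ± SE), and Enpp2 the smallest, 0.30 ± 0.12. Mbp (0.79 ± 0.38, 95% interval -0.04 to 1.63), Mog (0.77 ± 0.45) and Cnp (0.51 ± 0.35) did not pass in the test used here. The study itself lists Mbp and Mog among genes higher in Tau and reversed by UNC0642, so its calls differ from these. After Benjamini-Hochberg adjustment in the edgeR quasi-likelihood test, 0 of the 34 genes had an adjusted p under 0.05, as against 0.157% of all genes tested, with 11 at an unadjusted p under 0.05. The smallest adjusted p was 0.297, for Fa2h. DESeq2, limma-voom and the edgeR likelihood ratio test also gave 0 genes under an adjusted p of 0.05. The Tau libraries lay wholly above WT for 3 of the 34 genes, Enpp2, Fa2h and Myrf, where 21.9% of all genes tested did so.

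The differences between Tau and WT depended on single libraries. Without Tau replicate 2, the median log2 fold change was -0.09, and 24 of the 34 genes were below WT. Without Tau replicate 1, the median was 1.00. The WT libraries mattered as well. Without the library labelled WT replicate 1, which leaves only libraries with high Xist counts in this comparison, the median was 0.99 and all 34 genes were higher in Tau. Without WT replicate 2 it was 0.31, with 26 genes higher and 8 lower. Leaving out either UNC0642 library, which shares only the estimate of spread with this comparison, left the median at 0.53. In an alternative chosen after seeing the data, the library labelled WT replicate 1 and Tau replicate 2 were both left out. This leaves 1 library each, and the median was 0.25. In all 6 fits that left out a single library, 9 of the 34 genes were higher in Tau. Those called with all libraries numbered 8 of these: Mobp, Mag, Enpp2, Fa2h, Tspan2, Anln, Myrf and Ndrg1. Fa2h kept the widest margin, from 0.59 to 1.32 on the log2 scale, followed by Myrf (0.30 to 0.77), whereas Mobp fell to 0.01 without Tau replicate 2.

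UNC0642-treated Tau was then set against untreated Tau, to ask whether the inhibitor was accompanied by a shift back. This comparison uses the same Tau libraries as the previous one, so the 2 results are not independent. The median log2 fold change was -0.66, and all 34 genes were below 0. Of the 34, 10 were called lower and 0 higher, where 3.95% of all genes tested were called lower: Mobp, Mag, Ugt8a, Gjb1, Fa2h, Hapln2, Myrf, Ndrg1, Tmem88b and Nfasc. Of these, 6 were among the genes called higher in Tau than in WT. Fa2h differed most, by -1.17 ± 0.31 (log2 fold change ± SE), and Nfasc, by -0.37 ± 0.10, had the smallest p. Mbp (-0.74 ± 0.38, 95% interval -1.58 to 0.10) and Mog (-1.01 ± 0.46) did not pass here, although the study lists both as reversed by UNC0642. After adjustment 0 of the 34 genes were under 0.05 in edgeR, where 0.0196% of all genes tested were. The count at an unadjusted p was 10, and DESeq2, limma-voom and the likelihood ratio test gave 0 after adjustment as well. The smallest adjusted p was 0.395. Both UNC0642 libraries were below both Tau libraries for 8 of the 34 genes (Mag, Ugt8a, Gjb1, Fa2h, Apod, Myrf, Tmem88b and Nfasc), and 20.9% of all genes tested had this order.

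Here too the differences depended on Tau replicate 2. Without it, the median was 0.05 and 21 of the 34 genes were higher with UNC0642, while Fa2h (-0.80) and Nfasc (-0.46) stayed lower. Without Tau replicate 1, the median was -1.19 and all 34 genes were lower. The medians without UNC0642 replicates 1 and 2 were -0.61 and -0.68. Over the 6 fits that left out a library, the log2 fold changes of Fa2h ran from -1.54 to -0.80. Those of Nfasc and Myrf ran from -0.50 to -0.26 and from -1.04 to -0.50. With the library labelled WT replicate 1 and Tau replicate 2 both left out, the median was 0.07, with 23 genes higher and 11 lower with UNC0642.

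**Figure D3:**
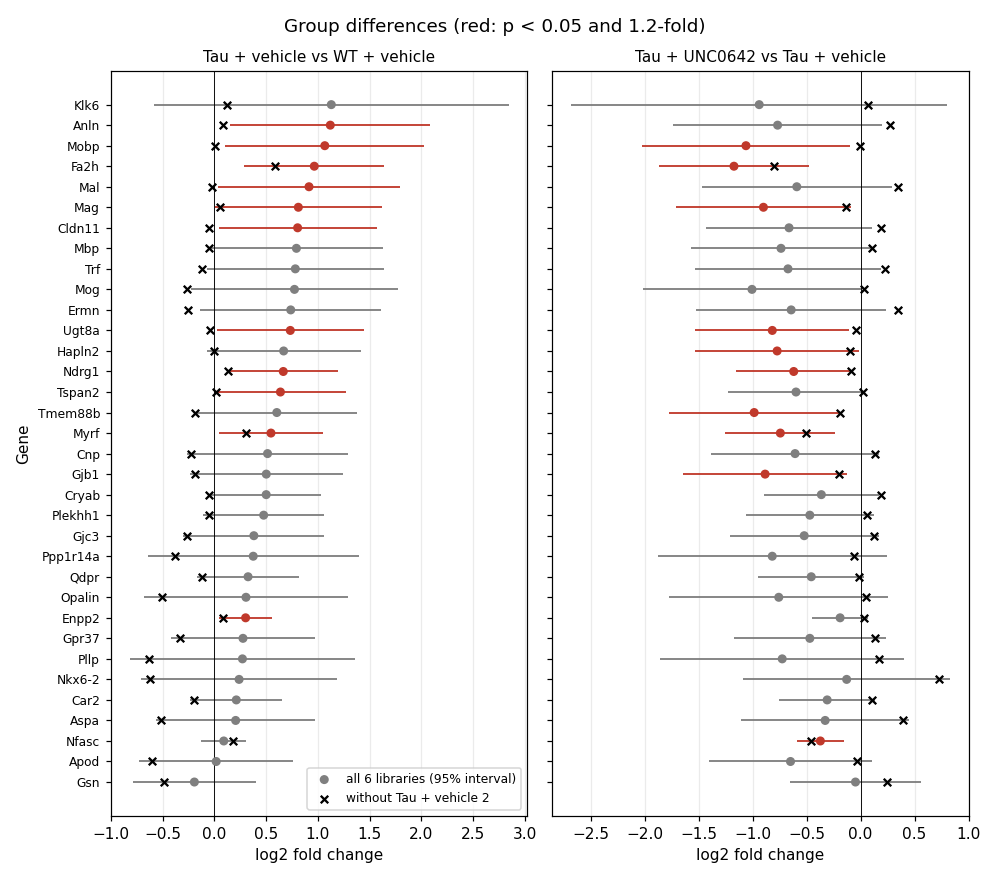
Log2 fold change of each of the 34 genes (horizontal axes) for Tau + vehicle against WT + vehicle (left) and Tau + UNC0642 against Tau + vehicle (right), with genes in rows (vertical axis). Circles and lines give the estimate and its 95% interval from all 6 libraries, red where p was under 0.05 with at least 1.2-fold, and crosses the estimate without Tau + vehicle replicate 2, most of which lie near 0 with medians of -0.09 and 0.05.

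UNC0642-treated Tau was close to the WT mean, with intervals that leave room for sizeable differences. The median log2 fold change against WT was -0.10, with 14 genes above and 20 below 0, and the median SE over the genes was 0.35, against 0.18 for all genes tested. For Mbp the difference was 0.05 with a 95% interval of -0.78 to 0.89. Nfasc was the 1 gene of 34 called, lower by -0.28 ± 0.10 on the log2 scale, where 5.69% of all genes tested were called lower. Its adjusted p was 0.297. In edgeR 0 of the 34 genes passed adjustment, with 1 at an unadjusted p under 0.05 and 0 by DESeq2, limma-voom and the likelihood ratio test, and 0.216% of all genes tested passed. Both UNC0642 libraries were below WT for 2 of the 34 genes, Nfasc and Gjb1 (22.3% of all genes tested had this order). Enpp2, at 276 and 256 CPM with UNC0642, was above its WT values of 243 and 249 CPM. The direction of the median depended on which WT library was used: it was 0.33 without the library labelled WT replicate 1, with 31 genes above 0, and -0.38 without WT replicate 2, which leaves only libraries with high Ddx3y counts in this comparison, with 32 genes below 0.

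Other genes of the lineage shared the spread between the Tau replicates by stage. Counts of calls stand beside these shares of all genes tested: 3.72% higher in Tau than in WT, and 9.81% in either direction. For UNC0642-treated against untreated Tau the shares were 3.95% lower and 7.69% in either direction. Of 44 further mature oligodendrocyte genes, 6 were called higher in Tau than in WT and 10 lower with UNC0642, and their median difference between the Tau replicates was 0.64. Kif5a and Tppp, which neurons also express, spanned 2662 to 3237 and 894 to 1068 CPM. Of 18 genes of newly formed oligodendrocytes, 1 was called higher and 2 lower in Tau, and 3 lower with UNC0642, with a median difference between the Tau replicates of -0.03. Bcas1 was the exception that moved with the myelin genes, from 41.3 CPM in WT replicate 2 to 152 CPM in Tau replicate 2, whereas Fyn and Sema5a spanned 93.2 to 119 and 67.7 to 110 CPM. Of 20 progenitor genes, 2 were called higher and 1 lower in Tau, and 5 lower with UNC0642, with a median Tau replicate difference of -0.05. Ptprz1, Tnr and Epn2, those with the highest CPM, ranged from 173 to 187, 209 to 310 and 131 to 147 CPM. Sox10, the partner of Myrf, measured 8.75 and 4.88 CPM in WT, 8.12 and 12.8 CPM in Tau and 4.50 and 4.50 CPM with UNC0642. Both UNC0642 libraries were below the others for Sox10 (log2 fold change -1.21 against Tau, edgeR adjusted p = 0.353).

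The lipid synthesis genes of myelin (24, of which Gal3st1 and Cers2 were also among the 44) had 4 called higher in Tau and 4 lower with UNC0642. The shares of all genes tested were 3.72% and 3.95%. Scd2, Fasn and Hmgcs1 spanned 1124 to 1459, 290 to 375 and 285 to 400 CPM. Of 20 genes of the axonal node and paranode, 1 was called higher in Tau and 2 lower with UNC0642, against the same shares. Ank2, Sptbn1 and Scn2a spanned 1408 to 1743, 1637 to 1880 and 903 to 1064 CPM. The median differences between the Tau replicates were 0.15 for the lipid genes and -0.11 for the node and paranode genes.

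Markers of striatal projection neurons, cells that lie beneath the cortex, moved with Tau replicate 2 as well. All 12 were higher in Tau replicate 2 than in replicate 1, with a median difference of 1.11, and their summed level was 365 and 346 CPM in WT, 403 and 623 CPM in Tau and 348 and 358 CPM with UNC0642. Of the 12, 10 were called higher in Tau than in WT and 11 lower with UNC0642, against 3.72% and 3.95% of all genes tested. None of the 12 was at 0 in any library. Pde10a, Pde1b and Rasd2 reached 144, 173 and 50.3 CPM in Tau replicate 2, against at most 92.7, 145 and 41.9 CPM elsewhere. Unlike the myelin genes, these markers were not high in the library labelled WT replicate 1, where their median deviation was -0.11. Their part in the result was not tested.

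**Figure D4:**
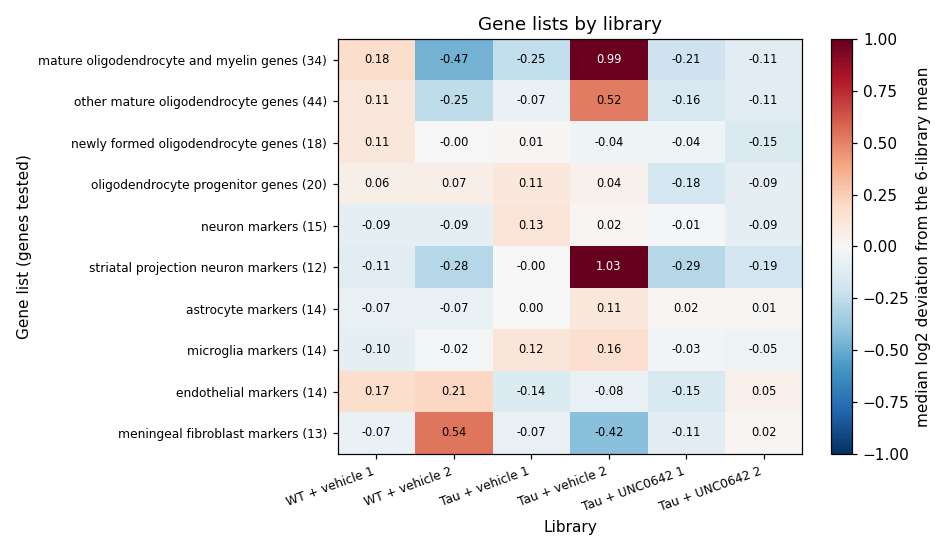
Median log2 deviation from each gene's mean over 6 libraries, for 10 gene lists (rows, with the number of genes tested) in each library (columns); the colour bar gives the same values. The mature oligodendrocyte and striatal lists reach 0.99 and 1.03 in Tau + vehicle replicate 2 and differ in WT + vehicle replicate 1, at 0.18 and -0.11.

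Markers of other cells changed less or in other directions. Of all genes tested, 3.72% were called higher in Tau than in WT and 9.81% in either direction. With UNC0642 against untreated Tau, 3.95% were called lower and 7.69% in either direction. Summed neuron markers ranged from 10356 to 11312 CPM (15 markers; 2 called higher in Tau, 1 higher with UNC0642), with Snap25, Map2 and Syt1 at 2671 to 3266, 2307 to 2601 and 1134 to 1942 CPM. Summed astrocyte markers ranged from 5691 to 6390 CPM (14 markers; 2 called higher in Tau, 0 with UNC0642), and Slc1a2, Slc1a3 and Aldoc spanned 3047 to 3605, 594 to 637 and 576 to 709 CPM. Microglia markers summed to 446 to 541 CPM (14 markers; 4 called higher in Tau, 1 higher and 3 lower with UNC0642), with Csf1r and Ctss at 67.5 to 91.7 and 59.8 to 83.3 CPM. Endothelial markers summed to 211 to 290 CPM (14 markers; 5 called lower in Tau, 1 higher with UNC0642). Cldn5, the claudin of vessel walls, was lower in Tau by -1.10 on the log2 scale (edgeR adjusted p = 0.0467), and Slco1a4, Flt1 and Itm2a spanned 39.2 to 62.5, 35.7 to 47.5 and 22.4 to 32.2 CPM. Meningeal fibroblast markers ran opposite to the myelin genes, at 96.8 and 133 CPM in WT, 91.5 and 76.4 CPM in Tau and 91.1 and 94.8 CPM with UNC0642 in sum (13 tested; 5 called lower in Tau, 1 higher with UNC0642), with Col1a2, Pdgfrb and Islr at 11.2 to 24.3, 12.1 to 20.6 and 6.41 to 14.1 CPM. Choroid plexus markers were near absent, with 3 of 9 tested (1 called lower in Tau, 0 with UNC0642), of which Kl and Clic6 stayed at or below 3.26 CPM and Aqp1 reached 9.93 CPM in the library labelled WT replicate 1 and at most 0.710 CPM elsewhere. The 12 early response genes, which neuronal activity and handling induce, had 4 called higher and 2 lower in Tau and 6 higher with UNC0642. Egr1 and Arc were higher in Tau than in WT (0.76 and 0.79 on the log2 scale, edgeR adjusted p = 0.0468 and 0.0416), and Egr2 and Arc were higher with UNC0642 than in WT (1.82 and 1.43, edgeR adjusted p = 0.00805 and 0.0018). The WT libraries differed in these genes too: replicate 2 minus replicate 1 had a median of -0.56 on the log2 scale, with 1 of the 12 higher in replicate 2. The part of these markers in the myelin gene values was not tested.

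Exons of 12 of the 34 genes overlap those of another annotated gene. The overlap covered 63.5% of Trf exons, with Gm20425 on the same strand, and 54.2% of Pllp exons, with an antisense gene. In every other case it was under 20%. Gm20425 had 0 counts in each library. How the counting treated reads that fall in 2 genes, and its strand setting, which bears on Pllp, are not given in the sources used here, so the levels of Trf and Pllp are uncertain to this extent.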

How the data were processed

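PFC RNA from 2 mice per group was sequenced by the authors with a strand-specific, ribosomal RNA-depleted library kit. The authors trimmed reads with Cutadapt and aligned them to mouse RefSeq mRNAs. The submitters' processing notes also name TopHat2, SAMtools, featureCounts, edgeR and the build mm10. The deposited values are raw counts per gene and library, without normalization. In 2 of the files 26 symbols appear as dates, and those rows were matched by their order.

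Here counts were analysed with edgeR 4.0.16 in R 4.3.3. filterByExpr (minimum count 10, minimum total 15) kept 20409 genes, libraries were scaled by TMM (factors 0.966 to 1.04), and the quasi-likelihood fit took all 6 libraries with group as its factor, which leaves 3 residual degrees of freedom. P-values were adjusted by Benjamini-Hochberg over all genes tested. A call was p under 0.05 with at least a 1.2-fold change. SDs are over the 2 libraries of a group, SEs come from the model, and log2 CPM used a prior count of 2. Exon lengths and overlaps came from GENCODE M21 by symbol, and promoters from RefSeq (GRCm38.p6). A count of 3 corresponds to 0.107 to 0.178 CPM, for counting error only. Limma 3.58.1, DESeq2 1.42.0, other scalings, filters and thresholds, a replicate block and fits without each library were alternatives, and in a fit that leaves 1 library in a group it is assumed to vary like the others. Only the edgeR fit was tested on simulated counts. In these, randomly picked genes changed in both Tau libraries and no set of genes differed between replicates, unlike the data here. The members and lists were chosen with earlier results of these data known.

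Named were 5 classic myelin genes (Mbp, Mog, Mobp, Mag and Cnp), members with an adjusted p under 0.05, the 3 with the smallest p per comparison, the 3 with the largest and the 3 with the smallest Tau replicate difference, members whose groups did not overlap, the 3 genes with the highest level of each other list and its genes under an adjusted p of 0.05. Other members were given by their values. Values of some genes that this rule names are not reported here.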

Additional observations from a re-analysis of the deposited data

How the results depend on the processing

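With 2 libraries per group, leaving out 1 library could change the sign of the median log2 fold change in each comparison. Over the 6 such fits, the number of the 34 genes called ran from 0 to 28 for Tau versus WT, from 2 to 31 for UNC0642-treated versus untreated Tau and from 0 to 3 for UNC0642-treated Tau versus WT, and the median log2 fold change from -0.088 to 1.00, from -1.19 to 0.053 and from -0.38 to 0.33. The same fits gave ranges across 0 for Tau versus WT in Mbp (-0.054 to 1.37), Mog (-0.26 to 1.45), Cnp (-0.23 to 1.07), Gjb1 (-0.19 to 1.00), Ugt8a (-0.041 to 1.25), Tmem88b (-0.19 to 1.13), Apod (-0.60 to 0.64) and Nfasc (-0.0049 to 0.18), and for UNC0642-treated versus untreated Tau in Mbp (-1.27 to 0.11), Mog (-1.63 to 0.028), Cnp (-1.10 to 0.13), Enpp2 (-0.38 to 0.028) and Anln (-1.39 to 0.27). With the library labelled WT replicate 1 and Tau replicate 2 both left out, an alternative chosen after seeing the data, the medians were 0.25, 0.070 and 0.33. In the 3 comparisons 10, 8 and 15 genes were called, where 10.1%, 10.9% and 11.4% of all genes tested were. The directions differed from the main fit, which called genes only lower with UNC0642. Against untreated Tau, Anln, Aspa, Ermn, Gsn and Mal were called higher with UNC0642, and Fa2h, Myrf and Nfasc lower. Against WT, all called genes except Nfasc were higher with UNC0642. WT and Tau held 1 library each in this fit, so these calls decide nothing.

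Against 11 genes called higher in Tau than in WT, library sizes without TMM gave 4 (and Apod at -0.051), no filter 24, at least 10 counts in every library 7, DESeq2 4, limma-voom 4 and the 2 groups alone 6. Of all genes tested, these settings called 10.6%, 8.07%, 9.56%, 6.48%, 9.81% and 9.26% in either direction, and the main fit 9.81%. Against 10 called lower with UNC0642 than in untreated Tau, no filter gave 30, DESeq2 5 and limma-voom 3. The shares of all genes tested were 6.78%, 5.17% and 7.35%, and 7.69% in the main fit. Against 1 called between UNC0642-treated Tau and WT, no filter gave 6, the 2 groups alone 2 and a 1.5-fold threshold 0. No filter called 7.49% of all genes tested, the 2 groups alone 9.52% and the main fit 9.47%. The share at a 1.5-fold threshold is not given here. At an adjusted p under 0.05 the 3 counts were 0, 0 and 0. Without a filter they were 19, 24 and 2, where 656, 483 and 733 of 34535 genes passed. They were also above 0 in some fits that left 1 library in a group. The cause was not tested. DESeq2 size factors and TMM without oligodendrocyte genes left 11, 10 and 1 called. Of all genes tested, DESeq2 size factors called 9.79%, 7.65% and 9.46% in either direction. TMM without oligodendrocyte genes called 9.82%, 7.70% and 9.47%. Same-numbered libraries came from different mice and their deviations were uncorrelated (r = -0.03, -0.02 and -0.0033), so the replicate block, with 4, 7 and 1 genes called, reflects only a shared number. With the block, 8.78%, 6.88% and 8.60% of all genes tested were called in either direction. Klk6, with fewer than 10 counts in some libraries, had the widest intervals of the 34 genes.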
